A study of Mus musculus with 3 samples.

Results

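The protamines Prm1, Prm2 and Prm3 and the transition proteins Tnp1 and Tnp2 were followed through mouse spermatogenesis in single-cell 3′ RNA libraries. The 5 genes were taken by symbol. Each symbol named exactly 1 of the 32285 rows of every gene table, so all 5 were measured in all libraries. Described are the order in which the transcripts appeared, the share of a cell's RNA they took up, their ratios within cells, their level in a Tex10 knockout, and their level in cells that do not make them.

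During the last phase of sperm formation the haploid spermatid replaces its histones. Transition proteins, small basic nuclear proteins, are laid down first, and protamines, which are rich in arginine, then take their place and pack the sperm nucleus tightly. The genes are transcribed in round spermatids and their messenger RNAs are stored for days before they are translated in elongating spermatids, so that the RNA is present long before the protein. Prm1 encodes a protamine in its final form, and Prm2 a precursor that is trimmed after it binds DNA. Prm3 lies in the same gene cluster but encodes an acidic protein that has been found in the cytoplasm rather than on DNA.

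All 5 genes are protein-coding and lie on the minus strand of GRCm38. Tnp1 (ENSMUSG00000026182) stands alone at chr1:73015074-73015909. The other four share a stretch of chromosome 16, in the order Tnp2 (ENSMUSG00000043050, chr16:10787936-10788660), Prm3 (ENSMUSG00000050058, chr16:10790505-10790914), Prm2 (ENSMUSG00000038015, chr16:10791380-10796134) and Prm1 (ENSMUSG00000022501, chr16:10796326-10805839). Counted over the transcripts that start at the usual promoters, the cluster spans 8951 bases, and only 465 bases lie between Prm3 and Prm2. Prm3 has 1 exon. The transcripts of the other genes that start at the usual promoters have 2, and Prm1 and Prm2 each have another annotated transcript with 3.

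Prm3 started before its neighbours Prm2 and Prm1 in the order described below, so the 120 bases before each RefSeq start (GRCm38.p6, minus strand, 5′ to 3′) are shown in the order in which the transcripts appeared. Capitals mark 2 kinds of match, TGANNTCA, a palindromic frame shared by cyclic AMP response elements, on either strand, and TATA on the gene's own strand between 40 and 20 bases before the start, where overlapping matches run together.
Prm3, chr16:10790915-10791034: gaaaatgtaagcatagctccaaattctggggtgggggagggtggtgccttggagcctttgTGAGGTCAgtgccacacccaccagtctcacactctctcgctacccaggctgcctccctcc
Tnp1, chr1:73015900-73016019: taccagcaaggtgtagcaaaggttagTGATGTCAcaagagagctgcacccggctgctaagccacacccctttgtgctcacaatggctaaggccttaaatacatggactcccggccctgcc
Tnp2, chr16:10788656-10788775: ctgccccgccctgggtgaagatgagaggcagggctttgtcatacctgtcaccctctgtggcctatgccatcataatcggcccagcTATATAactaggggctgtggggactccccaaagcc
Prm1, chr16:10796824-10796943: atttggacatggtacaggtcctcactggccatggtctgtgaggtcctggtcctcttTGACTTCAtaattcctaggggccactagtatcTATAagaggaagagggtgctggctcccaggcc
Prm2, chr16:10792106-10792225: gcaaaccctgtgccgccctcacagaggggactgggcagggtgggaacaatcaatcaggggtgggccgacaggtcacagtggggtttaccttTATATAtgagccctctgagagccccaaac

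Prm3, Tnp1 and Prm1 each held 1 match to TGANNTCA, as TGAGGTCA, TGATGTCA and TGACTTCA, beginning 60, 94 and 64 bases before the start. Tnp2, Prm1 and Prm2 held TATA at 35 to 24 bases before the start, and Prm3 and Tnp1 held none there. Of 32851 promoter windows of the same length, 7.14% held TGANNTCA and 5.49% held TATA in that position. Prm1 alone of the 5 genes held both, which 0.335% of the windows did. A match is a string of letters and no evidence of binding. GENCODE places the first base of Prm1 63 bases further upstream than RefSeq, inside the window shown, and lists for Prm1 and for Prm2 another transcript that starts further upstream still.

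The series compared testes of adult C57BL/6N wildtype mice with testes of adult C57BL/6N mice carrying a conditional knockout of Tex10, a gene described in ribosome biogenesis and in stem cells. The wildtype group was 2 libraries of 1 mouse each, named wildtype replicate 1 and wildtype replicate 2. The knockout group was 1 library that pooled 2 mice and whose cells cannot be assigned to either, and which Cre drove the deletion, in which cells, and which exons it removed are not given in the sources used here. Below, values listed together for the libraries start with wildtype replicate 1, go on with wildtype replicate 2 and end with the knockout. With 1 knockout library no test between the groups was possible.

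The libraries held 93418341, 96001773 and 147783171 unique molecular identifiers (UMIs, each a count of 1 captured RNA molecule), and 7516, 7724 and 11105 cells were kept. Pairs of libraries shared 27 to 30 deposited barcodes, of which 17 to 19 were kept. Tex10 itself stood at 44.9, 41.0 and 35.3 of every 1000000 UMIs over the kept cells, a 3′ count that does not see a deleted exon. Clusters were named from marker genes. Low-UMI clusters, some of which matched spermatid markers best, were set aside with 4069, 3051 and 6922 of the kept cells. The germ cells outside those clusters, 3244, 4445 and 3669 of them, were placed in 1 order from spermatogonia to elongating spermatids and cut into 30 bins of equal size. Neither the clusters nor the order used the 5 genes. A level is given in ppm, the UMIs of a gene per 1000000 UMIs outside the 5 genes, since the 5 alone made up 6.92%, 7.40% and 7.70% of all UMIs of the libraries. Such counts of 3′ ends do not grow with transcript length and were not divided by it. How well each transcript is captured was not tested.

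Prm3 was the first of the 5 transcripts to appear, about 2 bins before Tnp1 and Tnp2 and 2 or 3 before Prm1 and Prm2, in every library. The onset of a gene was set at the first bin that reached 10% of its own highest bin. By this measure Prm3 started in bin 14 in all 3 libraries and Tnp1 and Tnp2 in bin 16. Prm1 started in bin 16 in wildtype replicate 1 and in bin 17 in the other two. Prm2 started in bin 17 in all 3. Bins 14 to 16 held round-spermatid-like cells, apart from 39 late-spermatocyte-like cells in bin 14, and bins from 18 onwards held elongating-spermatid-like cells.

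The rise of Prm3 began earlier than that threshold. In bin 10 its level was 33.2, 37.0 and 29.8 ppm, and in bin 12 it was 244, 244 and 245 ppm. Over the same 2 bins Prm1 went only from 533, 642 and 485 ppm to 1082, 1192 and 866 ppm. The knockout library was the lowest in bin 10 and, by about 1 ppm, the highest in bin 12. In UMIs per cell Prm3 went from 2.52, 2.19 and 2.82 to 7.12, 5.48 and 10.3 over these bins, while Prm1 went from 40.4, 38.1 and 45.8 to 31.5, 26.8 and 36.2. The gain of Prm1 in ppm thus came with fewer UMIs per cell, and that of Prm3 with more. In ppm alone Prm3 was no clear gain over the shallow cells of bin 4, which had 250, 212 and 240 ppm. Those cells held only 1.40, 1.01 and 1.74 UMIs of it each on average. The cluster that filled bins 11 to 13 was named late-spermatocyte-like by its markers, but some genes of round spermatids were far higher there than in bin 10. Acrv1, a protein of the acrosome, went from 6.49, 7.84 and 4.91 ppm in bin 10 to 350, 374 and 354 ppm in bin 12. Piwil1, a piRNA-binding protein of spermatocytes, went from 214, 202 and 170 ppm to 11.9, 15.5 and 10.1 ppm. Spaca1, another acrosome protein, went from 12.98, 14.79 and 9.90 ppm to 615, 584 and 598 ppm. Of the 15 round-spermatid markers 12, 11 and 12 rose at least 2-fold over these bins, and 0, 1 and 0 fell as much. Piwil1 was not typical of its list, as of the 14 late-spermatocyte markers only 3, 3 and 4 fell at least 2-fold. In each library 2 of those 14 rose as much. The name of the cluster is therefore uncertain, and the rise of Prm3 is described by bin. The median cell of the order also lost UMIs at that point, from 86805, 55304 and 106445 in bin 10 to 26045, 19246 and 33703 in bin 11.

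**Figure D1:**
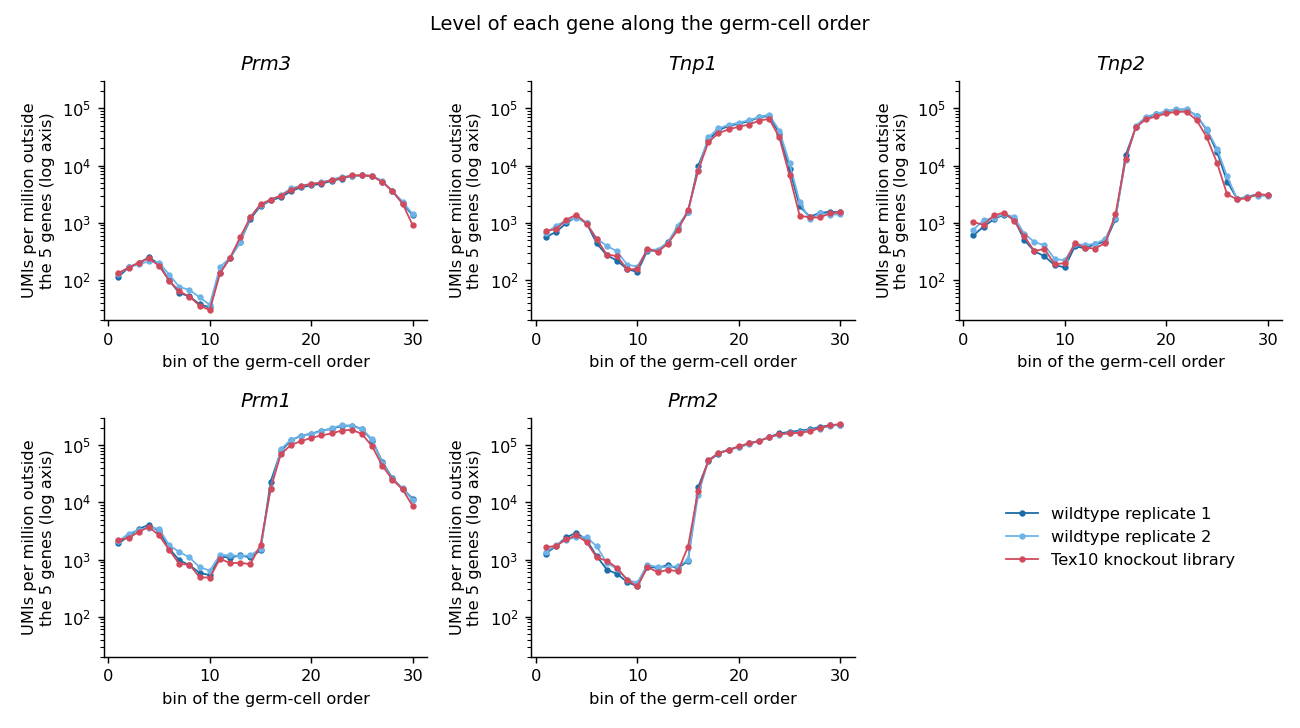
Level of each gene in 30 bins of the germ-cell order (x axis, bin number; y axis, level in ppm, log axis), with 1 line for each of the 3 libraries. Prm3 leaves its low level from bin 11 on, the other genes rise steeply between bins 15 and 17, and Prm2 is highest in the last bin.

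Tnp1 was next, with 458, 448 and 430 ppm in bin 13 and 808, 897 and 751 ppm in bin 14. Over that step Prm1 went from 1179, 1150 and 875 ppm to 1087, 1184 and 832 ppm, which is no rise common to the libraries. Tnp2 followed Tnp1, with 469, 527 and 447 ppm in bin 14 and 1156, 1238 and 1420 ppm in bin 15. In bin 15 the level of Prm1 was 1451, 1550 and 1805 ppm. Prm2 stood at 949, 975 and 1673 ppm in bin 15, against 799, 738 and 658 ppm in bin 13. In these sums, from 101, 176 and 101 cells, the knockout library was thus the highest for both protamines in bin 15. Its median cell was the lowest there, at 1418, 1445 and 1204 ppm for Prm1 and 875, 927 and 826 ppm for Prm2. From bin 15 to bin 16 Prm1 then rose to 23001, 17598 and 17412 ppm and Prm2 to 18457, 13561 and 15970 ppm. In the knockout library Prm2 had stood at 627 ppm in bin 14, but its summed level in bin 15 does not describe the typical cell. An earlier rise there is therefore not shown.

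Cells called on for each gene followed the same order, at thresholds that differed between the genes. A cell was called on for a gene when it held more UMIs of it than 99% of the cells in bins 1 to 9, the spermatogonia and spermatocytes that precede any rise. In bins 10 to 16 of wildtype replicate 1, 153 of 744 cells were on for Prm3 and not for Tnp1, and 4 were on for Tnp1 and not for Prm3. In wildtype replicate 2 these counts were 343 and 2 of 1148 cells, and in the knockout library 210 and 4 of 758 cells. Between the transition proteins, 68, 110 and 89 cells were on for Tnp1 alone and 0, 4 and 2 for Tnp2 alone. Cells on for Tnp2 but not for Prm1 numbered 56, 74 and 63, and those on for Prm1 but not for Tnp2 numbered 6, 2 and 1. The protamines Prm1 and Prm2 were least far apart. Prm1 alone was on in 17, 6 and 23 cells, and Prm2 alone in 5, 7 and 1 cells, so wildtype replicate 2 showed no lead of either. A cell was on above 73.0, 101 and 87.7 UMIs of Prm1 and above 59.0, 73.8 and 148 UMIs of Prm2. The Prm2 threshold was the higher of the pair in the knockout library alone, so its counts for this pair give no order. The thresholds were 7, 8.28 and 9 UMIs for Prm3, 22, 28 and 31 for Tnp1, and 27, 35.3 and 41.7 for Tnp2. A gene with a lower threshold is called on at fewer UMIs, so these counts alone cannot settle an order. They rest on a threshold in UMIs per cell, which also moves with a cell's depth.

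In bin 14 all 58 cells of wildtype replicate 1 were on for Prm3, 60.3% for Tnp1, 5.17% for Tnp2, 3.45% for Prm1 and 0 for Prm2. In bin 16 the shares on were 92.9%, 84.6% and 87.1% for Prm1 and 90.8%, 85.2% and 77.3% for Prm2. The shares of bins 1 to 9, which set the background, are 1% by construction. Within bin 16 the level of Prm1 in a cell ranged from 3365 to 45224 ppm between the 10th and the 90th percentile of wildtype replicate 1, while that of Prm3 ranged only from 1941 to 2918 ppm. That bin therefore held cells before and after the steep rise of Prm1, and the level of Prm3 differed little among them. Bin 17 also still held cells below the thresholds. The shares on there were 75.7%, 79.8% and 87.3% for Prm1 and 70.4%, 72.7% and 85.5% for Prm3.

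The 5 genes then left the order at different points. Tnp2 was highest in bins 21 or 22, with 95156, 96669 and 87019 ppm, and Tnp1 in bin 23, with 73980, 77350 and 65641 ppm. Both were under 10% of their highest level from bin 26 on. Prm1 was highest in bins 23 or 24, with 219164, 223329 and 185031 ppm, and passed under 10% of that in bin 29. Prm3 was highest in bins 24 or 25, with 6778, 6755 and 6784 ppm, and still had 19.9%, 20.9% and 13.3% of it in the last bin. For Prm2 the highest level, 225284, 225289 and 232896 ppm, was that of bin 30. In UMIs per cell Prm2 fell meanwhile, from 1598, 1169 and 2052 in bin 24 to 1006, 904 and 1415 in bin 30, less steeply than the rest of the cells' RNA. For Prm1, the last bin held 5.27%, 4.89% and 4.62% of the highest level. Cells at the end of the order held few UMIs, 4896, 4012.5 and 7140.5 in the median cell of bin 30.

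**Figure D2:**
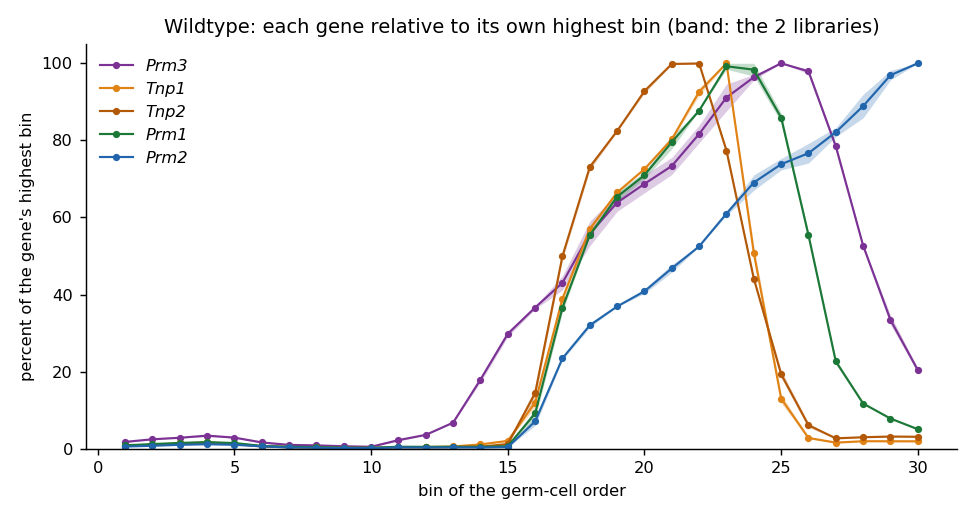
Wildtype level of each gene as a percent of its own highest bin (y axis) along the 30 bins of the germ-cell order (x axis); points are means of 2 libraries and bands span them. Prm3 is the first to rise, Tnp1 and Tnp2 fall between bins 22 and 26, Prm1 after bin 24, and Prm2 stays high to the last bin.

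In the elongating-spermatid-like class, which held 1473, 2005 and 1739 cells, the joint share of the 5 genes in all UMIs was 26.2%, 26.6% and 24.99%, or 26.4% ± 0.305 (SD, n = 2) for wildtype. The exact binomial 95% intervals of these shares, which like all such intervals here cover counting error only, ran from 26.150% to 26.190%, from 26.582% to 26.619% and from 24.974% to 25.003%. Prm1 made up 9.95%, 10.1% and 9.02% of UMIs, Prm2 9.26%, 9.37% and 8.91%, and Tnp2 3.97%, 3.99% and 3.99%. Tnp1 made up 2.66%, 2.78% and 2.70%. Prm3 was the minor member, with 0.340%, 0.360% and 0.360%. By bin, the joint share was highest in bin 23, at 33.7%, 34.1% and 31.01%, and 19.5%, 19.5% and 19.8% in bin 30, where Prm2 supplied nearly all of it. The median cell of the class held 966, 721 and 1558 UMIs of Prm1 and 39, 31 and 67 of Prm3, in order of the cells' median depths of 10574, 8334 and 16329 UMIs.

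Ratios between 2 transcripts in the same cells do not depend on the total. The ratio of Prm1 to Prm2 was steady over bins 18 to 22 and then ran down in every library. In wildtype it lay between 1.62 and 1.75 in those bins. It was 1.13 and 1.16 in bin 25, 0.272 and 0.270 in bin 27, and 0.0512 and 0.0485 in bin 30. The ratio of Tnp1 to Tnp2 lay between 0.596 and 0.733 in wildtype from bin 17 to bin 22, was 0.996 and 1.04 in bin 23 and 0.370 and 0.355 in bin 26. Before that, in bin 14, Tnp1 had 1.72 and 1.70 UMIs for each of Tnp2. The ratio of Prm3 to Prm2, adjacent genes, fell from 2.08 and 2.12 in bin 15 to 0.0537 and 0.0564 in bin 17.

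Cells of 1 bin differed in these ratios by more than counting error. In bin 19 the middle 80% of wildtype replicate 1 cells had 1.57 to 2.03 UMIs of Prm1 for each of Prm2, and those of wildtype replicate 2 had 1.53 to 1.96. A chi-square of the cells' counts against the common ratio of their bin was taken in each of bins 17 to 23. For Prm1 and Prm2 it lay between 4.21 and 10.3 per degree of freedom in wildtype and between 5.56 and 42.5 in the knockout library. For Tnp1 and Tnp2 it lay between 2.87 and 12.4 in wildtype and between 6.33 and 22.96 in the knockout library. A value of 1 stands for counting error alone. Cells are not replicates of a genotype, and a bin still spans a stretch of the order over which the ratios drift.

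The ratio of Prm1 to Prm2 was lower in the knockout library than in both wildtype libraries in 14 of 14 bins from 17 to 30. Over bins 17 to 23 the summed ratio was 1.64, 1.67 and 1.36, and the median over cells was 1.68, 1.70 and 1.39. By bin, the log2 ratio of the knockout value to the wildtype mean ran from -0.44 to -0.06 over bins 17 to 30, with a median of -0.27. The knockout cells of these bins were deeper, with a median of 15326, 13094 and 23478 UMIs, so cells of 10000 to 20000 UMIs were also taken alone. In those 276, 347 and 221 cells the summed ratio was 1.66, 1.67 and 1.37. Among the cells of each bin below its median depth it was 1.70, 1.70 and 1.36, and among the deeper cells 1.62, 1.67 and 1.36. With the order computed in each library separately, the median log2 ratio over bins 17 to 23 was 0.75 for the wildtype mean and 0.47 for the knockout library. The ratio was thus lower in the single knockout library in this depth window too, within which stage was not matched. The summed ratio over the whole class, 1.08, 1.08 and 1.01, differed less, since it mixes early and late cells. For Tnp1 and Tnp2 the ratio over bins 17 to 23 was 0.661, 0.688 and 0.659, and the knockout value lay just under that of wildtype replicate 1.

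**Figure D3:**
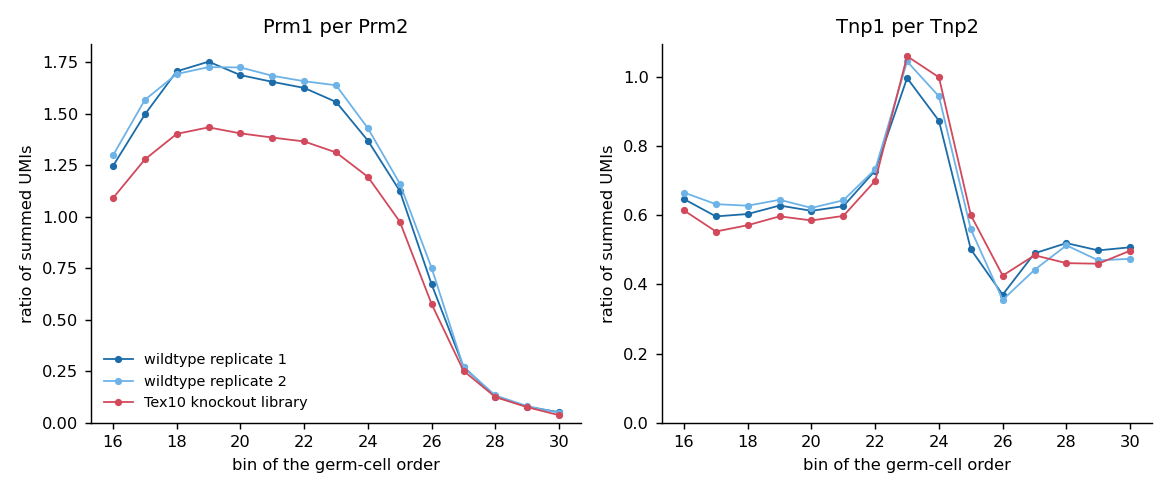
Ratio of summed UMIs of Prm1 to Prm2 (left) and of Tnp1 to Tnp2 (right) in bins 16 to 30 of the germ-cell order (x axis), with 1 line for each library. The knockout line lies under both wildtype lines for Prm1 to Prm2 in bins 17 to 30, while for Tnp1 to Tnp2 it lies under them in 8 and above them in 4 of those 14 bins.

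In levels, Prm1 was lower in the knockout library in every late bin, and Prm2 was not. From bin 17 to bin 30 Prm1 lay below both wildtype libraries in 14 of 14 bins, with a median log2 ratio to the wildtype mean of -0.27 (range -0.40 to -0.05). The wildtype libraries differed from each other by a median of 0.036 on that scale. In bin 23 its level was 215729, 223329 and 179178 ppm. Of 1365 genes at 100 ppm or more over these bins, 7.62% were likewise below both wildtype libraries in every bin, and in 4.91% the median log2 ratio was at or under that of Prm1 as well. Prm1 was thus 1 of 104 genes with this pattern, and the pattern is not particular to it. Prm2 lay below both wildtype libraries in 5 of the 14 bins and above both in 4, with a median log2 ratio of -0.01.

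Tnp1 and Tnp2 were lower in the knockout library over bins 17 to 23, below both wildtype libraries in 7 of 7 bins each, with median log2 ratios of -0.21 and -0.13. Of 1461 genes, 13.1% were below both in every one of those bins, and the median log2 ratio of all 1461 was -0.01. Where the transition proteins ran down, the gap was larger. In bin 26 the level of Tnp2 was 5262, 6473 and 3139 ppm and that of Tnp1 was 1948, 2301 and 1335 ppm. The log2 ratios there were -0.90 for Tnp2 and -0.67 for Tnp1, and the wildtype libraries themselves differed by 0.30 and 0.24. Levels change several-fold from bin to bin on this slope, and a small shift in order and a lower level cannot be told apart there. For Prm3 the log2 ratio stayed between -0.07 and 0.06 over bins 17 to 29. Only in bin 30 was it lower, with 1347, 1413 and 903 ppm, from 72 knockout cells.

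**Figure D4:**
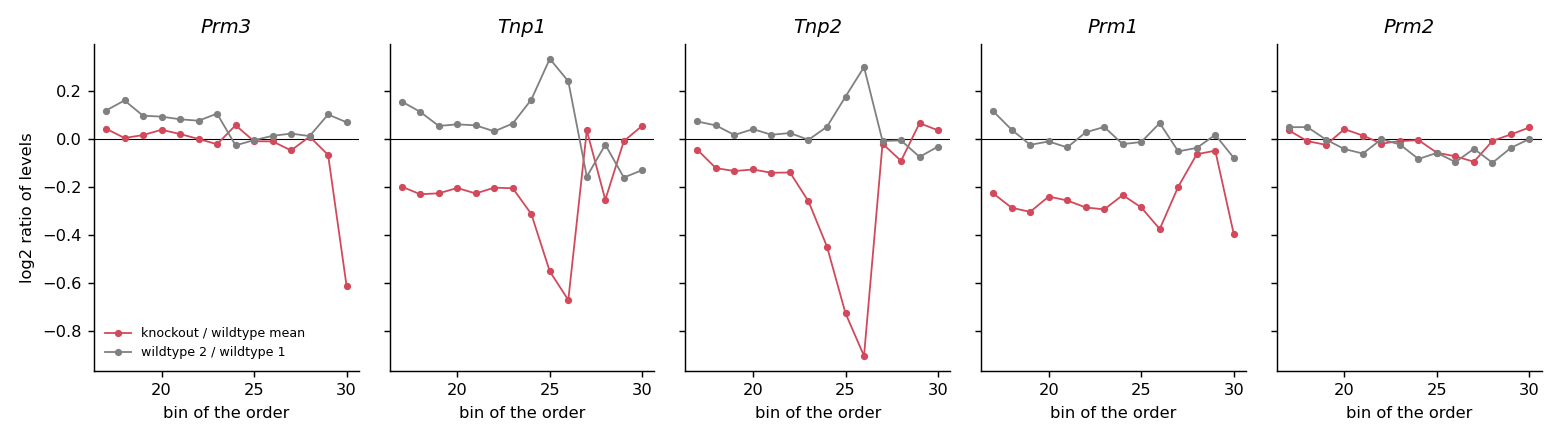
Log2 ratio of the knockout level to the wildtype mean (red) and of wildtype replicate 2 to wildtype replicate 1 (grey) for each gene in bins 17 to 30 of the order. The red line for Prm1 is below 0 in every bin, the lines for Prm2 and Prm3 stay near 0 up to bin 29, and those for Tnp1 and Tnp2 reach -0.67 and -0.90 in bin 26.

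None of these differences was large. Whole cell classes were also compared, and a gene passed a size rule when it differed at least 2-fold from each wildtype library in the same direction, with a log2 ratio no smaller than 2 times that separating wildtype replicate 1 from replicate 2, and reached 20 ppm in 1 library. In each of 6 classes 0 of the 5 genes passed. The share of all tested genes that passed was 0.337% in spermatogonium-like, 0.228% in early-spermatocyte-like, 0.844% in late-spermatocyte-like, 1.09% in round-spermatid-like, 1.55% in elongating-spermatid-like and 3.82% in myoid-like cells. In elongating-spermatid-like cells the levels of Prm1 were 134726, 137510 and 120222 ppm and those of Prm2 were 125366, 127698 and 118839 ppm. Their log2 ratios to the wildtype mean were -0.18 and -0.09, and both were below both wildtype libraries, as 32.6% of the 3730 tested genes were. The ratios of Tnp1, Tnp2 and Prm3 were -0.04, -0.02 and 0.01. The median of the 5 was -0.04 and that of all tested genes 0.03. Lower RNA per cell and fewer cells of a late stage in a class cannot be told apart in such sums. Within this class 1 cluster held 505, 645 and 5 cells and another 119, 143 and 794. The joint share of the 5 genes was 27.9% and 28.8% in wildtype cells of the former and 33.5% and 33.8% in those of the latter. Whether the 2 clusters hold cells of the same stage was not tested. Without these 2 clusters the log2 ratios of Tnp1 and Tnp2 were 0.18 and 0.22, that of Prm2 -0.19 and that of Prm1 -0.17, and the median of all tested genes was 0.11.

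Among round-spermatid-like cells the wildtype libraries differed widely in Prm1 and Prm2. Prm1 stood at 14049, 8800 and 13129 ppm there and Prm2 at 10770, 6452 and 11437 ppm. The knockout library lay between the wildtype libraries for Prm1 and above both for Prm2. Prm3, whose rise falls earlier in the class, had 2048, 1995 and 2164 ppm, with the knockout library above both. It was also above both for Tnp2, at 9266, 6011 and 9691 ppm, and between them for Tnp1, at 6108, 4351 and 6009 ppm. Of the 5516 genes tested in this class, 34.7% were above both wildtype libraries, so this place is common.

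Genes whose levels ran most nearly parallel to each member were named by Pearson's r of log2 level over 60 points, which are 30 bins in each of the 2 wildtype libraries and share cells, order and free RNA. These r describe curves and carry no test. Prm1 was most like Paqr5, a membrane receptor of the progestin and adipoQ family (r = 0.996), and the kallikreins Klk1b8 (0.991) and Klk1b9 (0.989). Prm2 was most like 1700027A15Rik (0.999), Nudt16l2 (0.998) and 1700029B22Rik (0.997), all of them highest in bins 29 or 30. Prm3 ran with Pkib, an inhibitor of protein kinase A (0.996), Psma6, a subunit of the proteasome (0.992), and 1700031P21Rik (0.991). Tnp1 and Tnp2 ran with each other (0.989) and with Tex37 (0.990 and 0.987), followed by Gm4665 for Tnp1 (0.974) and 4930513L16Rik for Tnp2 (0.979). Among the members the least parallel pair was Prm2 and Tnp1, with r = 0.752.

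Genes that act on these transcripts or on the exchange itself were taken from 3 lists, and in none of the 5 germ-cell classes did a gene of these lists pass the size rule. Of 11 factors in the transcription of spermatid genes, 3 were highest in round-spermatid-like cells. Crem, the cyclic AMP-responsive activator of haploid genes, had a wildtype mean of 517 ppm there, and its partner Fhl5 had 731 ppm. Tbpl1, a relative of the TATA-binding protein, was highest in late-spermatocyte-like cells with 1102 ppm. Spz1 was the highest of the list, in elongating-spermatid-like cells, with 2899, 3139 and 3046 ppm. Of 10 factors that store these messenger RNAs or control their translation, 6 were highest in late-spermatocyte-like and 4 in early-spermatocyte-like cells. Ybx3, a Y-box protein that binds stored RNA, led with 2765 ppm in late-spermatocyte-like cells. Of 22 measured genes of histone removal and exchange, 9 were highest in early-spermatocyte-like, 3 in late-spermatocyte-like, 6 in round-spermatid-like and 4 in elongating-spermatid-like cells. Among the last, Tssk6, a kinase needed for histone removal, had 4429, 3995 and 4025 ppm and H2al2a, a histone variant, 2229, 2465 and 2086 ppm. Tssk6 and Hmgb4, both of this list, are among the markers used to name the elongating class, so their place there is partly built in. H3f3b, which encodes histone H3.3, was the highest of that list, with 5159 ppm in early-spermatocyte-like cells.

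The 5 transcripts were also counted in cells that do not make them, and every class held them. Whether these UMIs come from free RNA, from doublets or from both was not tested. In spermatogonium-like cells the median cell had 56, 48.5 and 74 UMIs of the 5 genes, and 100%, 99.7% and 100% of those cells had at least 1 UMI of Prm1. In myoid-like cells, the contractile cells around the tubules, the median was 45, 37 and 60 UMIs. In macrophage-like cells it was 57, 38 and 68.5 UMIs. Within a library the median count thus differed little between these 3 classes, and the knockout library was the highest in each. The level in ppm was higher in the shallower class. In the macrophage-like class, with median depths of 1257, 2503 and 3631 UMIs, it was 11583, 14466 and 21727 ppm. In the deeper spermatogonium-like cells, with 11187, 8473 and 14748 UMIs, it was 5053, 5795 and 5784 ppm. A UMI of Prm1 alone thus marks no spermatid in these libraries, and a cell needed over 73.0, 101 and 87.7 UMIs of Prm1 to be called on.

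**Figure D5:**
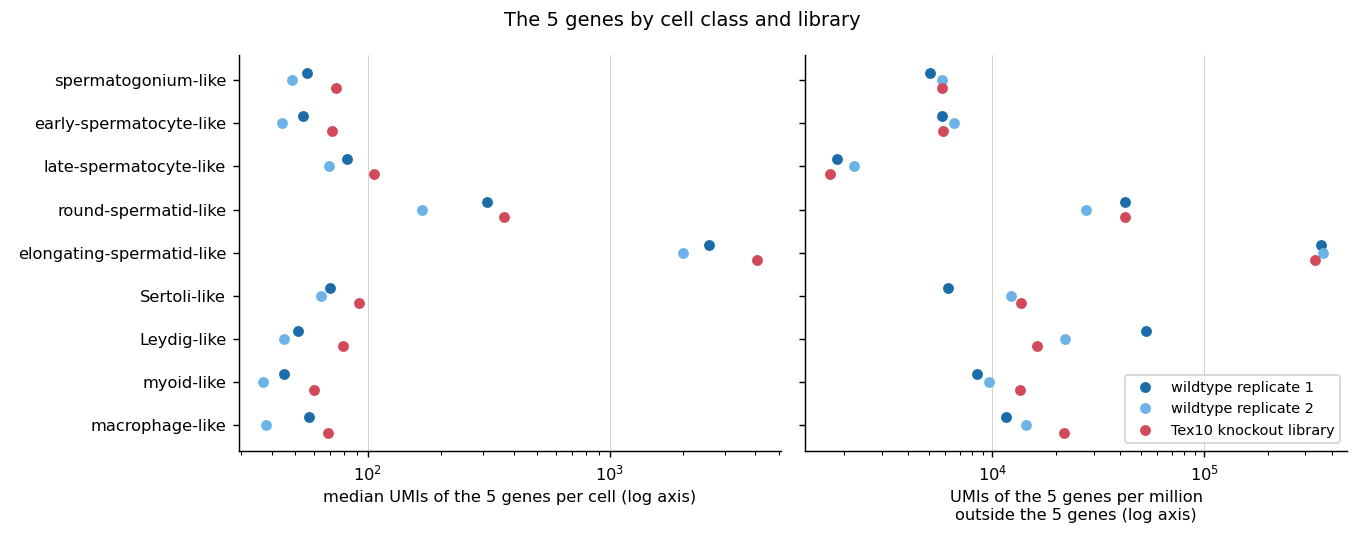
UMIs of the 5 genes by cell class (y axis) and library (colour), as the median count per cell (left, log axis) and as the level in ppm (right, log axis). In the named classes outside spermatids, with unnamed and low-UMI clusters not drawn, the median counts lie between 37 and 106 per cell, against 1998 to 4043 in elongating-spermatid-like cells.

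Relative to elongating-spermatid-like cells, myoid-like cells had a median over the 5 genes of 2.59%, 3.04% and 4.95% of the level. Of 13 other transcripts abundant in spermatids the median was 6.17%, 6.32% and 5.65%. In myoid-like cells the 5 genes thus had the lower median in each library, as they did in Sertoli-like, macrophage-like and spermatogonium-like cells. Only in Leydig-like cells of wildtype replicate 2 did they have the higher, 7.64% against 7.09%. The knockout value for myoid-like cells rested on 1 cell that held 3781 of the 9770 UMIs. With the cell of most member UMIs left out of each library the knockout level went from 13467 to 8597 ppm, and the wildtype mean from 9075 ± 824 ppm (SD, n = 2) to 8416 ppm. These levels also hang on the removal of likely doublets, since without it they were 49650 ppm in wildtype and 55710 ppm in the knockout library. The Sertoli-like and Leydig-like classes were small, with 22, 14 and 51 and with 8, 33 and 182 cells. Single cells there held up to 4352 and 7580 UMIs of the 5 genes, while the class medians stayed between 45 and 92 UMIs, so their summed levels describe few cells.

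The mix of the 5 transcripts outside spermatids was close to, but not the same as, that of elongating-spermatid-like cells. In bins 1 to 9, Prm1 made up 42.1%, 41.8% and 37.8% of the members' UMIs and Prm2 29.5%, 28.2% and 31.2%. In elongating-spermatid-like cells these shares were 38.0%, 37.9% and 36.1% for Prm1 and 35.4%, 35.2% and 35.7% for Prm2. Prm3 was 2.63%, 2.57% and 2.53% in bins 1 to 9 and 1.298%, 1.352% and 1.439% in the elongating class. Prm1 per Prm2 in bins 1 to 9 was 1.43, 1.48 and 1.21 in sums and 1.45, 1.55 and 1.37 as the median over cells, so the knockout library was again the lowest. In the clusters of low UMI totals the sums gave 1.43, 1.39 and 1.34, but the medians over cells, 1.51, 1.52 and 1.55, did not put the knockout library lowest. These clusters do not all lie outside spermatids, since some matched spermatid markers best. The low-UMI cluster that best matched elongating spermatids had a summed ratio of 0.645, 0.463 and 0.557. How far free RNA enters the counts of spermatids was not tested.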

How the data were processed

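Testis cells of 2 wildtype libraries and 1 Tex10 knockout library were measured. The deposited matrices hold whole-number UMI counts that were not normalized, and their file headers name Cell Ranger 4.0.0 as the software. The submitters' processing notes name mm10 and Seurat 4.0.5. Whether counting used the strand is not given in the sources used here. The last 500 bases of the members' transcripts shared 0 words of 31 bases with other genes, except 13 of 380 for Prm3.

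Barcodes with at least 1000 UMIs, 500 genes and at most 10% mitochondrial UMIs were kept. Scrublet called 0, 2 and 0 doublets, under 0.5%, so the top 8% of scores per library were left out instead. The 5 members were removed, and 2000 variable genes, 30 components and 15 neighbours gave Leiden clusters (scanpy 1.11.5, leidenalg 0.10.2). A cluster was named from at least 3 detected markers, and clusters whose median cell held under 3 times the lowest total deposited for its library were set aside as low-UMI, unless 3 or more leading genes marked a somatic type. Names are rebuilt and may differ from the study's. Germ cells were ordered by diffusion pseudotime (30 neighbours, 14 components). UMIs were summed per library and class or bin, and log2 ratios used a pseudocount of 1. Depth per library is given with the results, and intervals are 95%.

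Named were the 5 members, the 3 genes most parallel to each among those reaching 100 ppm in 1 bin, and list genes that passed the size rule or were the highest of their list. Acrv1, Spaca1, Piwil1, Crem, Fhl5, Tbpl1, Tssk6 and H2al2a were named after their values were seen. Members and lists were chosen with earlier results of these data known. No test was possible with 1 knockout library. On simulated libraries of the elongating class, with 3661 genes tested, the size rule recovered 100% of 50 genes raised and 50 genes lowered by 2 on the log2 scale, and 60% and 94% of those raised and lowered by 1.3, with 0 false calls. All simulated libraries were drawn from the pooled wildtype profile with small random differences and no shift in stage between them. Their 0 false calls therefore say nothing about false calls in the real libraries.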

Additional observations from a re-analysis of the deposited data

How the results depend on the processing

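Of 213 values recomputed under another setting, 158 stayed within the tolerance set for them and 55 moved beyond it. For shares, ratios and levels the tolerance was the SD of the wildtype libraries. For onsets it was the width of a bin, and for counts of genes a fixed factor. No member was called in any setting, and the ratios near 0 changed sign in some, as given below. The number of members past the size rule was 0 under every setting run. Prm3 started strictly first in 24 of 24 combinations of library and setting. The transition proteins started before or together with Prm1 and Prm2 in 24. Tnp1 started before or together with Tnp2 in 23, the exception being wildtype replicate 1 in an order computed for it alone. Ties were common in these last counts. With 60 bins Tnp1, Tnp2, Prm1 and Prm2 all started at 51.67% of the order in each library. With the onset set at 5% of the highest bin they all started at 50%. The joint share in elongating-spermatid-like cells was 27.3% in wildtype and 25.7% in the knockout library with a stricter cell filter, 27.0% and 25.9% without doublet scores, 27.1% and 26.1% with the members left in the clustered counts, and 26.1% and 24.5% with low-UMI clusters named by markers. Without either wildtype replicate the wildtype share was 26.2% to 26.6%. The median log2 ratio of Prm1 to Prm2 in that class, 0.49 in wildtype and 0.35 in the knockout library, was 0.43 in wildtype without doublet scores and 0.42 with the members left in. That of Tnp1 to Tnp2, -0.69 and -0.74, was -0.64 and -0.68 with at least 50 UMIs of the pair, and -0.71 in the knockout library without doublet scores. Further settings were chosen after seeing the data. For Prm1 to Prm2 they gave 0.76 and 0.47 in bins 17 to 23, 0.75 and 0.47 there in an order computed in each library, and 0.75 and 0.51 in cells of 10000 to 20000 UMIs. For Tnp1 to Tnp2 these were -0.62 and -0.69, -0.61 and -0.72, and -0.59 and -0.63.

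Log2 ratios of knockout to wildtype levels in that class moved as follows. Scaled to all UMIs, Prm1 was -0.15, Prm2 -0.063 and Tnp2 0.0039. With median-of-ratios size factors, Prm1 was -0.23, Prm2 -0.14, Tnp1 -0.089 and Tnp2 -0.077. With equal weights over bins, Prm1 was -0.27, Prm2 -0.012, Tnp1 -0.23 and Tnp2 -0.18. Without doublet scores, Prm1 was -0.155, Prm2 -0.056 and Tnp2 -0.037. Without the clusters held mostly by 1 genotype, a setting chosen after seeing the data, Prm2 was -0.19, Prm3 -0.057, Tnp1 0.18 and Tnp2 0.22. In bins 17 to 23 summed, chosen likewise, Prm1 was -0.28, Prm2 0.0099, Tnp1 -0.21 and Tnp2 -0.18. The 58 genes past the size rule became 152 with no filter on low levels, where more genes are tested, and 133 with a 1.5-fold rule, and were 60 to 72 without either wildtype replicate. The members' level in myoid-like cells was 49650 ppm in wildtype and 55710 ppm in the knockout library without doublet scores, and 7463 and 7990 as the median over cells. In the knockout library it was 8646 with the stricter filter, and 8597 without the cell of most member UMIs, chosen after seeing the data. Where no construction of a setting shows it, the cause was not tested. No paired analysis was possible because the knockout group is 1 library. Low levels before bin 11 are limited by the members' UMIs in every cell, and shares of cells called on by differing depth.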
